A study of Homo sapiens with 12 samples.

Results

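The DNA repair genes described here are 51 genes of 7 repair groups, chosen by name: 13 of base excision repair, 10 of nucleotide excision repair, 3 of mismatch repair, 10 of homologous recombination, 5 of end joining, 5 of damage signalling and 5 of the Fanconi anaemia pathway. Of the 51, 49 had at least 1 probe set listed for that gene alone, out of 11963 genes named in this way on the array. BRCA2 and FANCA were not analysed here. The 49 genes were read by 83 probe sets, 26 genes by 1 probe set each and 23 by 2 to 4. The choice used the names of the genes and no measured value, but it was made with earlier results of these data known.

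Cells without mitochondrial DNA (ρ°) were compared with their undepleted parents (ρ+) to see how the nuclear transcriptome differs once mtDNA is gone, in a pair of unlike cell lines. The 4 groups were A549 ρ+, A549 ρ°, 143BTK- ρ+ and 143BTK- ρ°, with 3 arrays each (A, B and C). A549 is a human lung adenocarcinoma line, and 143BTK- is a human osteosarcoma line that lacks thymidine kinase. The ρ° cells had been kept for 3 weeks in ethidium bromide at 50 ng/ml, a dye that blocks copying of mtDNA, and were used as mixed populations without picking clones. The dye was then removed. Parental and ρ° cells were frozen, thawed again and kept for about 10 passages before RNA was taken. The medium of every group held uridine at 50 µg/ml and pyruvate at 1 mM, on which ρ° cells depend, and 10% serum. Each array measured 12 µg of total RNA of a separate extraction on an Affymetrix human genome chip of 22283 probe sets, where a probe set is several short oligonucleotides that together read the end of 1 transcript, and the study treats the 3 arrays of a group as biological replicates. The ethidium bromide exposure and the loss of mtDNA went together in both lines, so their effects cannot be told apart.

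The values are signals of the probe sets on a linear scale, normalised within a line, so levels are not compared between the lines or between genes. The median signal was 31.4 on each A549 array and 27.6 on each 143BTK- array. Probe sets in the lower part of the range were left out of the tests: 58.8% were kept in A549, with a lowest mean signal of 19.1, and 62.9% in 143BTK-, with a lowest mean signal of 12.6. Differences are given as log2 changes, ρ° minus ρ+, with the standard error (SE) of limma, a linear model fitted to all kept probe sets, and p-values adjusted by Benjamini-Hochberg over all of them. Mean signals are arithmetic means ± SD over the 3 arrays, while folds are taken from the log2 changes and so compare geometric means. Intervals of a difference between the lines are 95% intervals of the fit. With 3 arrays against 3, an exact permutation test of 1 gene in 1 line cannot go below p = 0.1, so every call rests on the spread that limma pools over probe sets. The keratins KRT7, KRT8 and KRT18 marked A549 ρ+ as epithelial, with signals above those of at least 98.1% of the probe sets on every array, while EPCAM was low there (at most the 30.9th percentile). In 143BTK- the mesenchymal genes VIM and SPARC were above at least 93.6% of the probe sets on every array, and the bone regulator RUNX2 and the collagen gene COL1A2 were low (at most the 42.6th and the 44.8th percentile). KRT18, VIM and the mesenchymal gene FN1 were high in both lines. FN1 lay at the 98.6th percentile or higher in A549 ρ+ and between the 81.9th and the 95.5th in 143BTK- ρ+. EPCAM lay between the 49.2nd and the 56.4th percentile in 143BTK- ρ+. In A549 ρ° cells 4 of the 5 measured epithelial markers fell (KRT8, KRT18, KRT19 and CDH1), beside 5.2% of all kept probe sets. Of the 5 measured mesenchymal markers 0 passed there, with a median log2 change of -0.03. Mean signals of SPARC and CDH2 went from 29.5 and 39.8 in A549 ρ+ to 2.97 and 5.43 in ρ° cells. Those of VIM and RUNX2 went from 3303 and 5.43 to 4465 and 17. The part of these markers in the results below was not tested.

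Cells repair DNA along several routes. In base excision repair a glycosylase removes an oxidised, deaminated or alkylated base, an endonuclease cuts the bare sugar and a polymerase and a ligase fill and seal the gap, and several of these enzymes also have forms that work on mtDNA. Nucleotide excision repair cuts out a short stretch of a strand around a bulky lesion, and mismatch repair corrects copying errors. Broken double strands are joined directly by end joining or copied from the sister chromatid by homologous recombination, while the ATM and ATR kinases signal the damage and the Fanconi anaemia proteins free crosslinked strands.

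In A549 cells, 6 of the 47 repair genes measured there passed the test in ρ° cells (12.8%), beside 10.9% of all kept probe sets. The 3 that rose, ERCC1, ERCC2 and DDB2, all belong to nucleotide excision repair, and ERCC2 was kept in the test only through its ρ° arrays. The 3 that fell were PARP1 of base excision repair and BRCA1 and RAD51C of homologous recombination. Over all kept probe sets 5.66% rose and 5.2% fell, so the share of repair genes that changed was near that of the array as a whole. A repair gene is counted here by 1 probe set, and the background by every kept probe set. Counted by probe set, 7 of the 69 repair probe sets kept in A549 passed. In 143BTK- cells 0 of 49 repair genes passed, and 0% of all kept probe sets did. The ρ° arrays of 143BTK- lay further from their replicates, with median absolute log2 differences of 0.39 to 0.46, against 0.31 to 0.33 in A549. Between ρ+ arrays these differences were 0.34 to 0.42 in 143BTK- and 0.32 to 0.39 in A549. The part of this spread in the absence of calls was not tested. At an unadjusted p under 0.05, 16 of 47 repair genes differed in A549, beside 27.4% of all kept probe sets, and 4 of 49 in 143BTK-, beside 8.39%. The ρ° and ρ+ arrays did not overlap for 18 of 47 repair genes in A549 (6 higher and 12 lower), beside 31.9% of all kept probe sets, and for 7 of 49 in 143BTK- (5 higher and 2 lower), beside 14.8%. The median log2 change of the repair genes was -0.14 in A549 and -0.01 in 143BTK-, and that of all kept probe sets was 0.00 in both lines. The A549 count changed as single arrays were left out. Without ρ° A it was 1 (PARP1), without ρ+ B it was 1 (ERCC2), and without ρ° B it was 3. These smaller fits are given without the shares of all kept probe sets. Whether the drop was particular to repair genes was not tested.

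**Figure D1:**
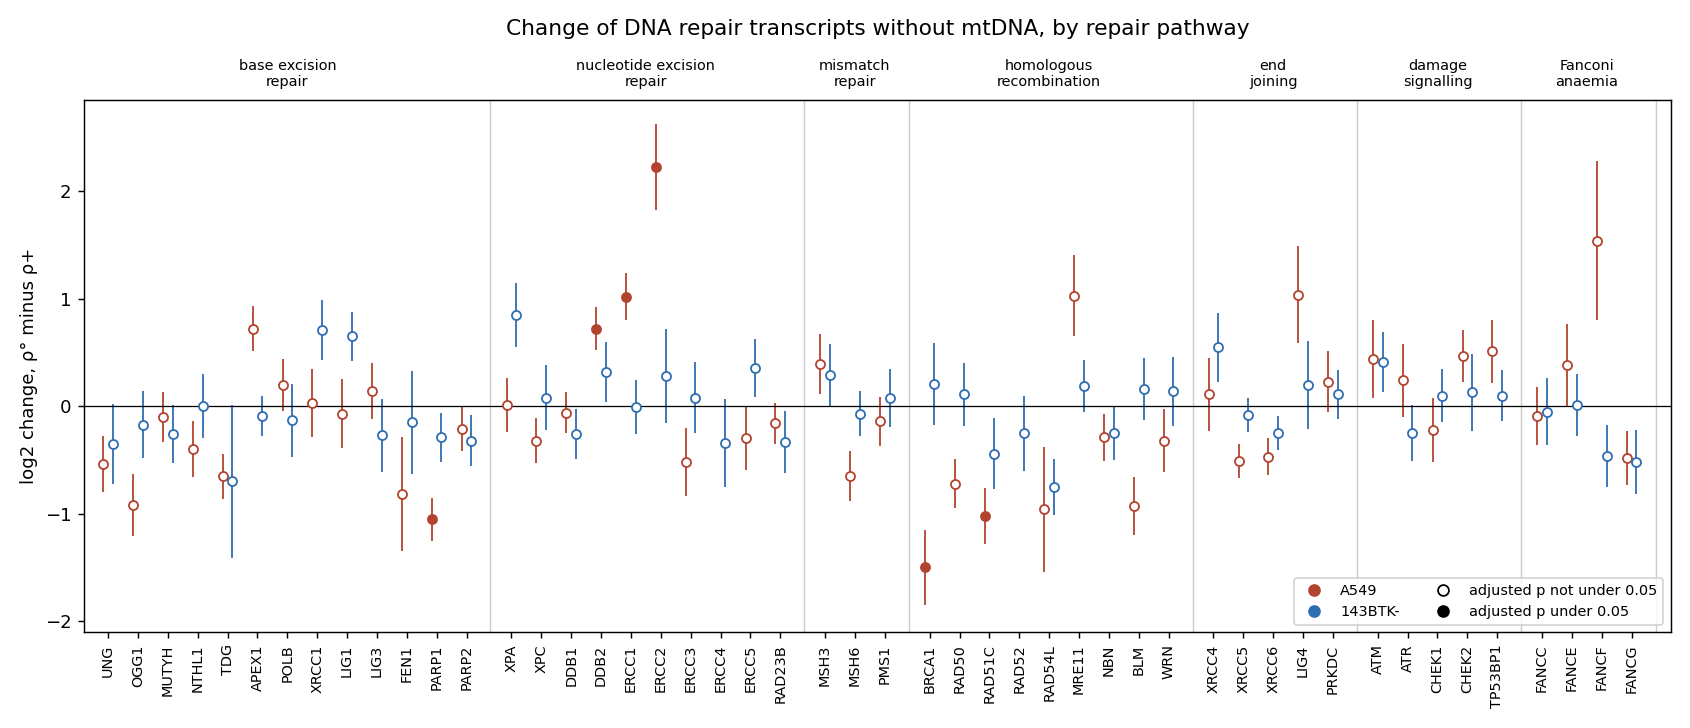
Log2 change of each repair gene (vertical axis, ρ° minus ρ+, with its SE) by repair group (horizontal axis), in A549 (red) and 143BTK- (blue), with filled points where the adjusted p was under 0.05. The 6 filled points all belong to A549: 3 genes of nucleotide excision repair lie above 0, and PARP1, BRCA1 and RAD51C lie below. Of the 3 above 0, ERCC2 was kept in the test only through its ρ° arrays, and the size of its rise was not measured. ERCC4 and RAD52 have no A549 point because no probe set was kept there.

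PARP1 was the base excision repair gene that passed the test in A549, and no other of the 13 did. PARP1 binds nicks in DNA and builds poly(ADP-ribose) chains that recruit repair proteins. Its signal was 446.9, 392.9 and 372.8 on the A549 ρ+ arrays and 232.1, 158.6 and 201.1 on the ρ° arrays. All ρ° arrays lay below all ρ+ arrays, with means of 197 ± 36.9 against 404 ± 38.3, 2.07-fold lower (log2 change -1.05, SE 0.20, adjusted p = 0.0116). Without ρ+ B the change was -1.07 with an adjusted p of 0.0515. In 143BTK- the signals were 339.4, 356.4 and 370.4 in ρ+ and 292.6, 230.1 and 364.1 in ρ° cells, so the groups overlapped (log2 change -0.29, SE 0.23, adjusted p = 0.778). The change in A549 minus that in 143BTK- was -0.76 (interval -1.41 to -0.10, adjusted p = 0.214), so a difference between the lines did not pass. Over both lines PARP1 was lower by a mean log2 change of -0.67 (SE 0.15, adjusted p = 0.0308), a call that was lost under 11 of 23 alternatives.

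The enzymes that start base excision repair mostly lay lower in A549 ρ° cells, without passing the test. OGG1, the glycosylase for 8-oxoguanine, had signals of 82.1, 111.5 and 76.9 in A549 ρ+ and 47.7, 35.0 and 62.5 in ρ° cells. These groups did not overlap, with a log2 change of -0.92 (SE 0.29, adjusted p = 0.0693), while another kept OGG1 probe set gave -0.33 and overlapped. In 143BTK- the OGG1 signals were 34.2, 40.7 and 40.7 in ρ+ and 25.3, 41.4 and 38.0 in ρ° cells, and the groups overlapped. TDG, which removes thymine and uracil from mismatches with guanine, had a log2 change of -0.65 in A549 (adjusted p = 0.0754) with no overlap and of -0.70 in 143BTK- (adjusted p = 0.821), where ρ° B read 16.5 beside 78.3 and 110.3 on the other ρ° arrays. UNG, which removes uracil, had log2 changes of -0.54 and -0.35 in A549 and 143BTK-. MUTYH, which removes adenine placed opposite 8-oxoguanine, had -0.10 and -0.26, and NTHL1, which removes oxidised pyrimidines, had -0.40 and -0.00. All 5 glycosylases thus had a change of 0 or below in each line, and 0 of them passed in either line.

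APEX1, the endonuclease that cuts the strand at a bare sugar, went the other way in A549. Its signal was 789.5, 544.9 and 921.9 in ρ+ and 1101.6, 1381.8 and 1172.1 in ρ° cells. The groups did not overlap, and the log2 change of 0.72 (SE 0.21) had an adjusted p of 0.0515, just outside the threshold. In 143BTK- it read 1335.9, 1063.9 and 964.8 in ρ+ and 986.3, 962.4 and 1209.9 in ρ° cells, with overlap and a change of -0.09. The difference of the changes between the lines was 0.81 (interval 0.18 to 1.43, adjusted p = 0.168).

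The enzymes that fill and seal the gap did not pass in either line. XRCC1, the scaffold for repair of single-strand breaks, and LIG1, the ligase of replication and long-patch repair, are named here after their values were seen, since they lay higher on all ρ° arrays of 143BTK- alone. XRCC1 had 45.1, 55.1 and 45.5 in 143BTK- ρ+ and 78.0, 102.8 and 61.9 in ρ° cells (log2 change 0.71, adjusted p = 0.574), with 0.03 in A549. LIG1 had 95.5, 103.7 and 105.2 in 143BTK- ρ+ and 141.2, 181.4 and 158.0 in ρ° cells (log2 change 0.65, adjusted p = 0.554), with -0.07 in A549. LIG3, the ligase of nuclear single-strand breaks and of mtDNA, had log2 changes of 0.14 in A549 and -0.27 in 143BTK-. POLB, the gap-filling polymerase, had 0.20 and -0.13, FEN1, the nuclease that trims flaps, -0.82 and -0.15, and PARP2, a relative of PARP1, -0.21 and -0.32. Another PARP2 probe set had -0.02 in A549 and -0.81 in 143BTK-, there without overlap (adjusted p = 0.497). A further PARP2 probe set had -0.19 and -0.27. The FEN1 arrays spread widely, from 67.3 to 343.8 over the A549 ρ° arrays, and its change did not exceed that spread (adjusted p = 0.353).

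Nucleotide excision repair held the 3 repair genes that rose in A549 ρ° cells. ERCC1 is the partner subunit of the nuclease that cuts 5′ of the lesion, ERCC2 (XPD) is a helicase of the transcription factor TFIIH that opens the strand, and DDB2 is the subunit that recognises ultraviolet lesions in chromatin. ERCC1 lies at chr19:45407334-45451547 and ERCC2 at chr19:45349837-45370573 of GRCh38.p14, on the reverse strand of the same region of chromosome 19. Because the 3 genes rose together, the 250 bases before a single annotated start of each are shown, written 5′ to 3′ along the gene. Other starts of these genes were not searched. All bases are in lower case since the E2F-type letters searched for were not found in them. Their share of G and C was 50.4% for ERCC1, 59.6% for ERCC2 and 55.6% for DDB2, beside a median of 58% over all promoters of the table, which is that of RefSeq for this build.
ERCC1, chr19:45451548-45451797, reverse strand: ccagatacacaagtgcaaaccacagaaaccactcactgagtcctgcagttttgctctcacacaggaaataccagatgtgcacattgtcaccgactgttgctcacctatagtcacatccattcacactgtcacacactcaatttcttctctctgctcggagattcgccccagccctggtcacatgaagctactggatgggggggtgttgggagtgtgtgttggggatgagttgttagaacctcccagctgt
ERCC2, chr19:45370574-45370823, reverse strand: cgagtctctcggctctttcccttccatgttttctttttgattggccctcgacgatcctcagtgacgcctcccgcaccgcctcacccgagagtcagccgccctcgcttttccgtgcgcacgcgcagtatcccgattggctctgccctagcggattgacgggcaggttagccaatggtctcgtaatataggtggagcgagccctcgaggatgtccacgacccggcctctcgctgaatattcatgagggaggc
DDB2, chr11:47214204-47214453, forward strand: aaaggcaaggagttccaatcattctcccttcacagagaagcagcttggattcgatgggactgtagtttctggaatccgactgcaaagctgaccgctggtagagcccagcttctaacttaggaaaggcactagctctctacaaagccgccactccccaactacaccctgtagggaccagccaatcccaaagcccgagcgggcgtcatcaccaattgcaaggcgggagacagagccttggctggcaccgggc

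The ERCC1 signal was 115.4, 117.3 and 164.1 in A549 ρ+ and 302.8, 229.2 and 266.3 in ρ° cells. The groups were well apart, and the signal rose 2.03-fold, with means of 132 ± 27.6 and 266 ± 36.8 (log2 change 1.02, SE 0.22, adjusted p = 0.019). Another ERCC1 probe set had 160.7, 155.3 and 317.9 in ρ+ and 240.4, 299.8 and 235.3 in ρ° cells, with overlap and a change of 0.37 (adjusted p = 0.444). The adjusted p of the first probe set was 0.0963 without ρ° A, 0.0539 without ρ+ A and 0.0824 without ρ+ B, and 0.0774 for the mean of both probe sets. In 143BTK- the first probe set read 257.3, 335.9 and 272.0 in ρ+ and 257.3, 376.6 and 240.0 in ρ° cells, with a change of -0.01. The difference between the lines was 1.02 (interval 0.31 to 1.74, adjusted p = 0.13) and did not pass.

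ERCC2 was near the bottom of the range in A549 ρ+ cells, at 17.5, 11.0 and 8.6, and reached 69.6, 54.4 and 45.0 in ρ° cells. Its ρ+ arrays lay under the lowest mean signal kept, and it was kept in the test only through its ρ° arrays. It passed as higher in ρ° cells (adjusted p = 0.0083), but the size of its rise was not measured. Without ρ° A the adjusted p was 0.066. In 143BTK- ERCC2 read 40.6, 40.0 and 45.7 in ρ+ and 36.9, 107.8 and 33.6 in ρ° cells, where the B array stood far above the other 2 and the groups overlapped (log2 change 0.28, adjusted p = 0.891). ERCC2 passed in the mean of both lines (adjusted p = 0.0371), and this call came mainly from A549, as the separate values show.

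DDB2 had signals of 271.0, 291.7 and 418.8 in A549 ρ+ and 535.5, 565.6 and 491.8 in ρ° cells, without overlap. The signal rose 1.65-fold, with means of 327 ± 80 and 531 ± 37.1 (log2 change 0.72, SE 0.20), with an adjusted p of 0.0485 that lay close to the threshold. The adjusted p was 0.154 without ρ° A, 0.151 without ρ° B, 0.0714 without ρ° C, 0.135 without ρ+ A and 0.173 without ρ+ B. The median change of all chromosome 11 probe sets in A549 was 0.19, and with changes centred on the chromosome DDB2 had 0.54 (adjusted p = 0.134). In 143BTK- DDB2 read 39.4, 45.9 and 36.6 in ρ+ and 42.7, 48.7 and 62.0 in ρ° cells, with overlap and a change of 0.32 (adjusted p = 0.796). The difference between the lines was 0.40 (interval -0.31 to 1.12).

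**Figure D2:**
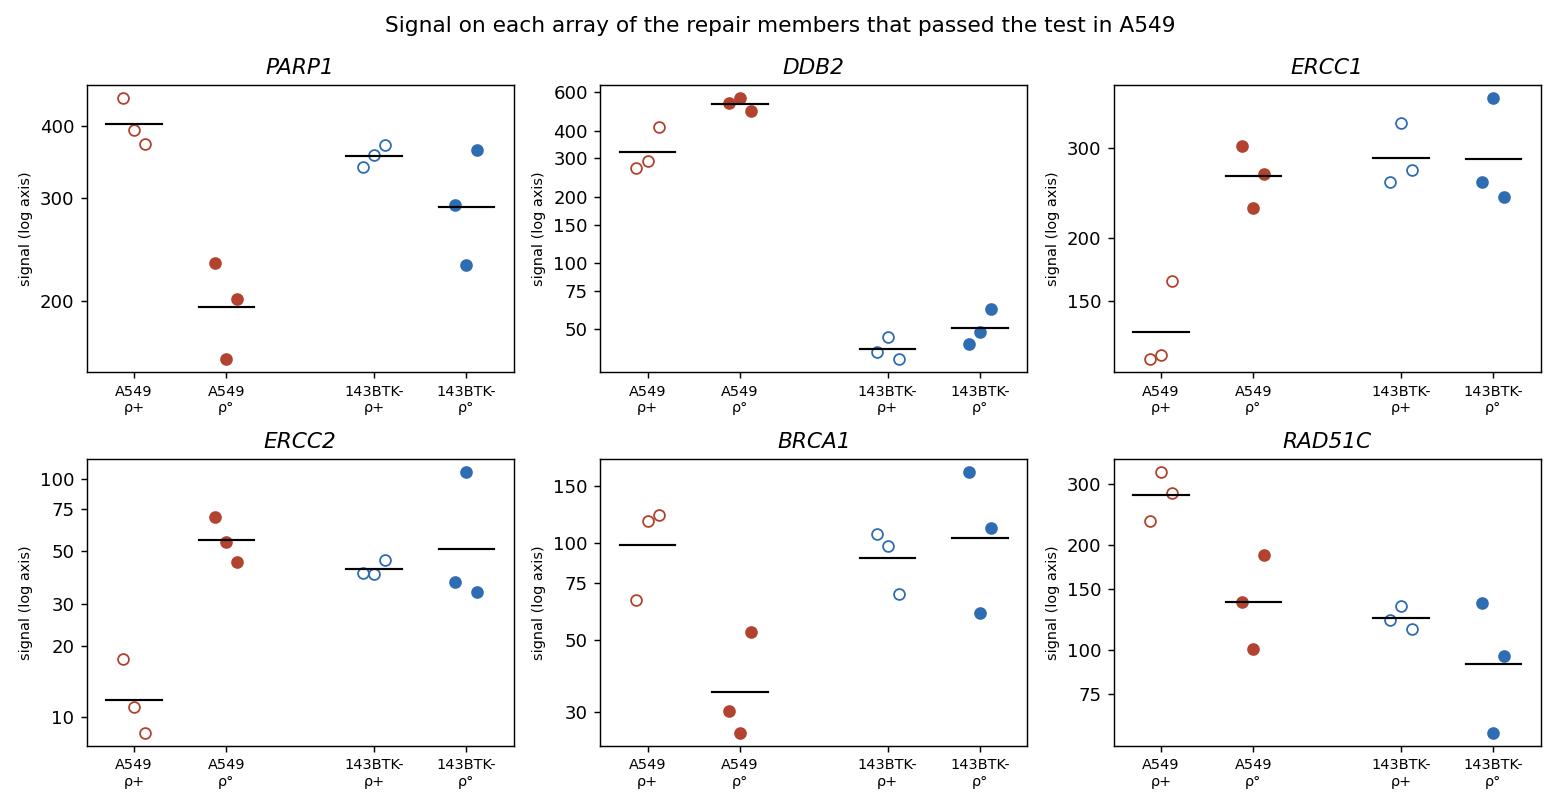
Signal on each array (vertical log axis, a separate range in each panel) of the 6 repair genes that passed the test in A549, for the ρ+ (open points) and ρ° (filled points) cells of A549 (red) and 143BTK- (blue), with black bars for the geometric mean of 3 arrays. In A549 the groups do not overlap in any panel, and in 143BTK- they overlap in all 6. Levels are not comparable between the lines.

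The other 7 genes of nucleotide excision repair did not pass in either line. DDB1, the partner of DDB2 in a ubiquitin ligase, had log2 changes of -0.06 in A549 and -0.26 in 143BTK-. XPC, which recognises distorted DNA, had -0.32 and 0.08, and its partner RAD23B -0.16 and -0.33. ERCC3 (XPB), the other helicase of TFIIH, had -0.52 in A549 (adjusted p = 0.33) and 0.08 in 143BTK-, so the A549 values of the pair of TFIIH helicases had opposite signs. ERCC5 (XPG), the nuclease that cuts 3′ of the lesion, had -0.30 and 0.36. ERCC4 (XPF), the catalytic partner of ERCC1, was not kept in A549, where it read 4.9 to 29.9 over the 6 arrays, and had a change of -0.34 in 143BTK-. XPA, which verifies the lesion, had 33.6, 25.8 and 29.7 in 143BTK- ρ+ and 41.0, 61.8 and 59.8 in ρ° cells. These groups did not overlap, but the change of 0.85 had an adjusted p of 0.55, and the A549 change was 0.01. Because 3 of the 9 genes measured in A549 passed and 6 lay between -0.52 and 0.01, the median of the group was -0.06. ERCC1 and ERCC2 lie close together, and the 23 genes within 500 kb on either side, a window set after the values were seen, had a median change of 0.26 in A549, with 1 that rose and 1 that fell, and 22 such genes 0.16 in 143BTK-.

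Of mismatch repair, MSH3, MSH6 and PMS1 were measured and 0 passed in either line. MSH6, a subunit of the dimer that recognises single mismatches, had signals of 341.1, 416.3 and 480.6 in A549 ρ+ and 203.8, 265.7 and 326.6 in ρ° cells. The groups did not overlap (log2 change -0.65, SE 0.23, adjusted p = 0.0943), but another MSH6 probe set read 192.7, 146.7 and 116.0 in ρ+ and 117.5, 133.9 and 205.4 in ρ° cells, with a change of -0.01. In 143BTK- MSH6 read 543.1, 623.6 and 710.1 in ρ+ and 551.7, 534.2 and 704.5 in ρ° cells, with a change of -0.07. MSH3, which takes part in the repair of larger loops, had changes of 0.39 in A549 and 0.29 in 143BTK-, and PMS1 had -0.14 and 0.08.

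Homologous recombination was the repair group with the lowest median in A549, -0.83 over the 8 genes measured, of which 7 had a negative change and 2 fell. It was the lowest under every alternative run in A549, at -0.95 to -0.36, with -0.36 when 64 was added before log2, -0.51 for means over the probe sets of a gene and -0.55 without ρ° B. BRCA1, which acts in the resection of broken ends and in loading the recombinase, read 66.6, 116.5 and 121.8 in A549 ρ+ and 30.3, 25.9 and 53.0 in ρ° cells. The groups did not overlap, and the signal fell 2.83-fold, with means of 102 ± 30.5 and 36.4 ± 14.5 (log2 change -1.50, SE 0.35, adjusted p = 0.0237). A different BRCA1 probe set gave 60.8, 53.4 and 48.4 in ρ+ and 26.6, 4.5 and 42.9 in ρ° cells, also without overlap (change -1.65, adjusted p = 0.156), with ρ° B far below the other arrays. The adjusted p of the first probe set was 0.0995 without ρ° A, 0.0863 without ρ° B and 0.0977 without ρ+ B. In 143BTK- BRCA1 read 106.3, 98.1 and 69.7 in ρ+ and 165.8, 60.5 and 111.1 in ρ° cells, with overlap and a change of 0.21. The difference between the lines was -1.71 (interval -2.88 to -0.53) with an adjusted p of 0.124.

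RAD51C, a paralog that helps the recombinase onto single strands, read 235.1, 324.4 and 282.3 in A549 ρ+ and 137.6, 101.0 and 187.2 in ρ° cells. The signal fell 2.02-fold, with means of 281 ± 44.7 and 142 ± 43.3 (log2 change -1.02, SE 0.26, adjusted p = 0.0317). The other RAD51C probe set read 156.3, 148.1 and 128.6 in ρ+ and 159.8, 146.8 and 183.1 in ρ° cells, with overlap and a change of 0.18 (adjusted p = 0.624). The probe sets of this gene thus disagreed in sign, and their mean gave -0.42 (adjusted p = 0.209). Without ρ° A, ρ° B or ρ+ B the adjusted p of the first was 0.113, 0.112 and 0.131. In 143BTK- the first probe set read 122.1, 134.3 and 115.2 in ρ+ and 136.4, 58.1 and 96.3 in ρ° cells, with a change of -0.44 and overlap.

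BLM, a helicase that dissolves recombination intermediates, just missed the threshold in A549. It read 101.3, 118.3 and 115.4 in ρ+ and 55.6, 44.2 and 81.1 in ρ° cells, without overlap (log2 change -0.93, SE 0.27, adjusted p = 0.0521). In 143BTK- it read 138.4, 89.3 and 76.6 in ρ+ and 121.5, 97.1 and 111.8 in ρ° cells, with a change of 0.16. RAD50, the clamp subunit of the complex that binds broken ends, had -0.72 in A549 (adjusted p = 0.0676) and 0.11 in 143BTK-. MRE11, the nuclease of the same complex, had 1.03 in A549 (adjusted p = 0.108) with overlap and 0.19 in 143BTK-, and NBN, the third subunit, -0.29 and -0.25. The other NBN probe sets had -0.70, -0.82 and -0.38 in 143BTK-, without overlap and without passing (adjusted p from 0.55 to 0.764). In A549 they had -0.03, -0.29 and 0.09. The subunits of this complex therefore did not share a sign in A549. RAD54L, a motor protein of strand exchange, named after its values were seen, read 112.2, 103.7 and 89.3 in 143BTK- ρ+ and 64.1, 70.5 and 48.6 in ρ° cells (change -0.75, adjusted p = 0.55), with -0.96 in A549, where 2 of the 3 ρ° arrays lay under the lowest mean signal kept. WRN, a helicase related to BLM, had -0.32 and 0.14. RAD52, which anneals single strands, was not kept in A549 and had -0.25 in 143BTK-.

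End joining held no gene that passed. Both Ku subunits, which cap broken ends, had lower signals on all ρ° arrays of A549 without passing. XRCC5 (Ku80) read 1030.2, 1083.3 and 1034.8 in A549 ρ+ and 746.7, 648.7 and 831.4 in ρ° cells (log2 change -0.51, SE 0.16, adjusted p = 0.0667). A different XRCC5 probe set overlapped, with a change of 0.09, and in 143BTK- the first one read 1773.5, 1738.4 and 1512.9 in ρ+ and 1495.2, 1441.7 and 1829.2 in ρ° cells (change -0.08). XRCC6 (Ku70) read 1251.0, 1457.4 and 1850.5 in A549 ρ+ and 1145.8, 1046.1 and 1064.2 in ρ° cells (change -0.47, SE 0.17, adjusted p = 0.109). In 143BTK- XRCC6 read 1294.2, 1497.2 and 1432.7 in ρ+ and 1227.7, 1252.7 and 1077.4 in ρ° cells (change -0.25, SE 0.16, adjusted p = 0.721). The XRCC6 arrays were thus apart in the same direction in both lines, by a small amount, and the mean change of -0.36 had an adjusted p of 0.0976.

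LIG4, the ligase of end joining, had 19.7, 22.1 and 9.9 in A549 ρ+ and 24.0, 40.5 and 38.3 in ρ° cells. The groups did not overlap, the mean of the ρ+ arrays lay under the lowest mean signal kept, and the adjusted p was 0.166. In 143BTK- LIG4 read 26.3, 39.1 and 20.4 in ρ+ and 50.0, 21.1 and 30.1 in ρ° cells, with a change of 0.20. XRCC4, its partner, had 0.11 in A549 and 0.55 in 143BTK-. PRKDC, the kinase that Ku recruits, had 0.23 and 0.11 by its representative probe set, while another probe set in A549 had -0.71 (adjusted p = 0.105).

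The damage signalling genes had small changes by their representative probe sets, and 0 of 5 passed in either line. ATM, the kinase of double-strand breaks, had 0.44 in A549 and 0.41 in 143BTK-. Another ATM probe set, named after its values were seen, read 14.8, 6.0 and 9.8 in A549 ρ+ and 54.2, 47.6 and 31.6 in ρ° cells (adjusted p = 0.0184). It was the only further repair probe set that passed in A549 beyond those of the 6 genes above, it was kept in the test only through its ρ° arrays since its ρ+ arrays lay under the lowest mean signal kept, and the size of its rise was not measured. In 143BTK- the same probe set read 25.6, 25.0 and 21.6 in ρ+ and 38.9, 41.8 and 33.5 in ρ° cells, again without overlap (change 0.66, adjusted p = 0.594). A further ATM probe set had 1.04 in A549 and -0.98 in 143BTK-. ATR, the kinase of stalled forks, had 0.24 and -0.25, its effector CHEK1 -0.22 and 0.10, the ATM effector CHEK2 0.47 and 0.13, and TP53BP1, which steers breaks toward end joining, 0.51 and 0.10.

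The Fanconi anaemia genes also did not pass. FANCF, an adaptor of the core complex, read 17.3, 3.2 and 32.1 in A549 ρ+ and 39.8, 27.7 and 39.8 in ρ° cells, with overlap and an adjusted p of 0.207. In 143BTK- its change was -0.46. FANCG, another core subunit, had -0.48 in A549 and -0.52 in 143BTK-, FANCE 0.38 and 0.01, and FANCC -0.09 and -0.05.

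Side by side, the A549 median was -0.21 for base excision repair, -0.06 for nucleotide excision repair, -0.14 for mismatch repair and -0.47 for the 13 double-strand break genes of recombination and end joining together. The end joining genes alone had 0.11, the signalling genes 0.44 and the Fanconi anaemia genes 0.15. In 143BTK- the medians were -0.17, 0.08 and 0.08 for base excision, nucleotide excision and mismatch repair and 0.11 for the double-strand break genes. No test was made between repair groups, and the order of the A549 medians was not that of 143BTK-. Of base excision repair 1 of 13 passed in A549, of nucleotide excision repair 3 of 9, of mismatch repair 0 of 3 and of double-strand break repair 2 of 13, beside 10.9% of all kept probe sets, 5.66% that rose and 5.2% that fell. The 3 of nucleotide excision repair include ERCC2, kept in the test only through its ρ° arrays.

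Over both lines, 2 of 47 repair genes passed in the mean change (ERCC2 rose and PARP1 fell), beside 3.7% of all kept probe sets. In A549, ERCC2 was kept only through its ρ° arrays. Of the other repair probe sets, the ATM probe set whose A549 ρ+ arrays lay under the lowest mean signal kept also passed in the mean change (adjusted p = 0.0133). In the test of the difference between the lines 0 of 47 passed by limma, beside 1.95% of all kept probe sets, and 9 had an unadjusted p under 0.05, beside 17.3% of all kept probe sets. Of the 69 repair probe sets kept in both lines, 2 were apart in the same direction in both (XRCC6 lower and the ATM probe set just described higher), which is 2.9%, beside 2.69% of all probe sets kept in both lines. In opposite directions 0 repair probe sets were apart in both, beside 2.06%. The mean change of PARP1 lost its call (adjusted p from 0.0507 to 0.0832) without A549 ρ° A or B, ρ+ A or B, or 143BTK- ρ° A or B, ρ+ A or B, and that of ERCC2 (0.0585 to 0.103) without A549 ρ° A or B, ρ+ B or C, or 143BTK- ρ+ A or B.

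Several genes were read by probe sets that disagreed. In A549, 18 repair genes had more than 1 kept probe set, and the sign of the change differed among them for 6 (CHEK1, MSH3, NBN, PRKDC, RAD51C and XRCC5). In 143BTK- it differed for 5 of 19 (ATM, ATR, CHEK1, PRKDC and XRCC5). Probe sets read the 3′ part of a transcript and can read different transcript ends, which these arrays do not resolve. Of the 6 genes that passed, PARP1, DDB2 and ERCC2 had a single probe set, the pair of BRCA1 probe sets lay on the same side, those of ERCC1 differed in size, and those of RAD51C lay on opposite sides of 0.

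**Figure D3:**
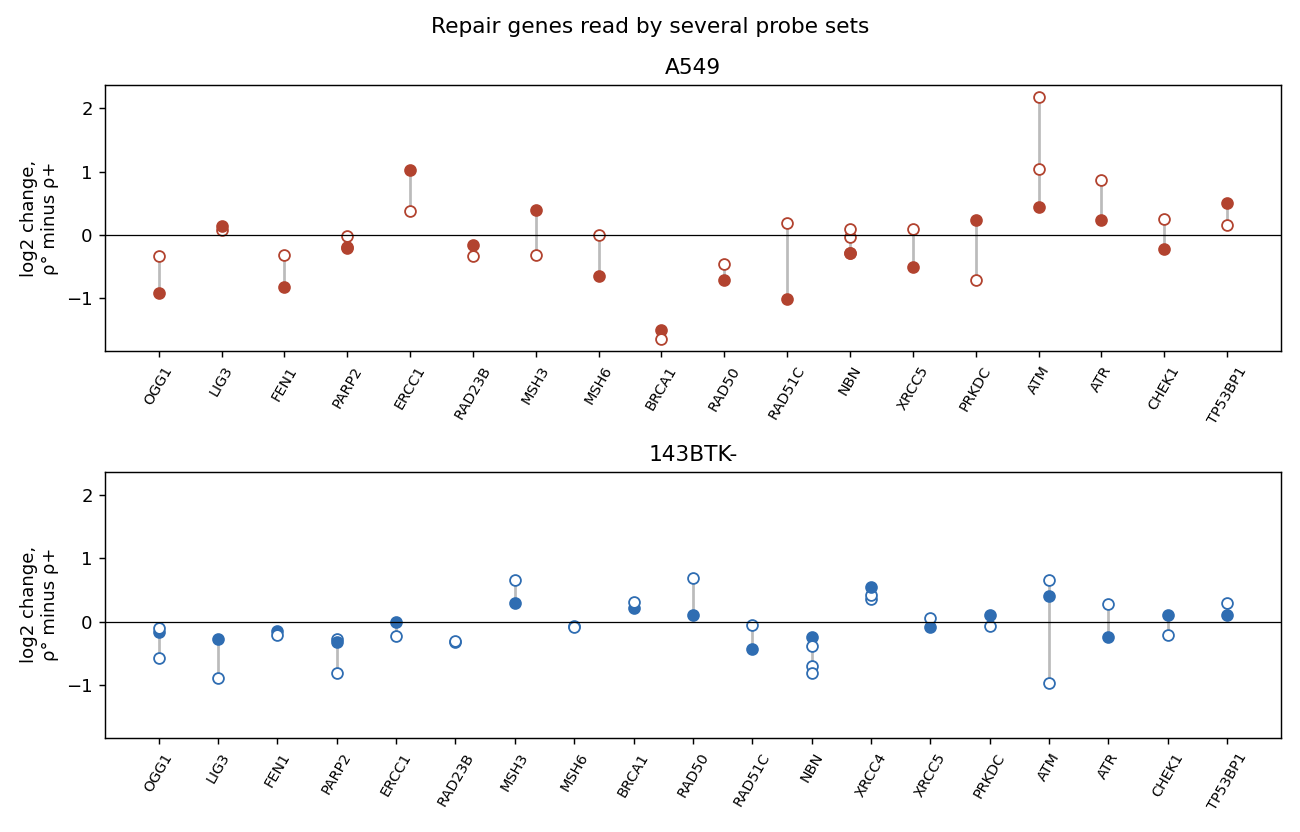
Log2 change (vertical axis, ρ° minus ρ+) of each kept probe set of the repair genes with more than 1, in A549 (upper panel, 18 genes) and 143BTK- (lower panel, 19 genes), with filled points for the representative probe set and grey lines joining those of a gene. The points of ATM spread from -0.98 to 0.66 in 143BTK-, its highest point in A549 has ρ+ arrays under the lowest mean signal kept and no measured size, and the points of RAD51C lie at -1.02 and 0.18 in A549.

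Many repair genes are transcribed most in dividing cells, and genes of DNA replication were therefore read on the same arrays. Of 30 measured genes of replication and S phase, 0 rose and 7 fell in A549 (CCNE1, MCM7, ORC6, PCNA, RFC3, RPA3 and RRM2), beside 5.2% of all kept probe sets that fell, and 28 had a negative change, with a median of -0.70. PCNA, the sliding clamp that also serves repair synthesis, fell 2.81-fold (adjusted p = 0.0151), with means of 1221 ± 405 and 438 ± 176, and ORC6, a subunit of the origin recognition complex, fell 3.34-fold (adjusted p = 0.00413). The summed signal of the list ran from 7913 to 11928 on the A549 ρ+ arrays and from 3833 to 7755 on the ρ° arrays, without overlap. In 143BTK- 0 of 31 passed, the median was -0.18, and the sums of 12741 to 16337 in ρ+ and 9929 to 14480 in ρ° cells overlapped. Fewer cells in S phase and less of these RNAs per cell cannot be told apart in bulk RNA.

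The homologous recombination genes and the replication genes were lowest on the same A549 array. The median deviation of the 8 recombination genes from their mean over the 6 arrays was 0.20, 0.37 and 0.43 on ρ+ A, B and C and -0.34, -0.76 and -0.03 on ρ° A, B and C. That of the replication genes was 0.28, 0.21 and 0.68 on the ρ+ arrays and -0.46, -0.81 and 0.21 on the ρ° arrays. On ρ° C both lists lay above the other ρ° arrays, and on ρ° B both lay below. The base excision repair genes ran from -0.08 to 0.25 on the ρ+ arrays and had -0.27, -0.24 and 0.08 on ρ° A, B and C. The nucleotide excision repair genes ran from -0.17 to 0.02 on the ρ+ arrays and had 0.05, -0.01 and 0.24 on ρ° A, B and C. Array ρ° C was thus the highest ρ° array in these lists too, and in end joining. It was not the highest for mismatch repair, damage signalling or the Fanconi anaemia genes. The end joining genes were also lowest of the 6 arrays on ρ° B, at -0.29. Among the ρ° arrays, B was the lowest for nucleotide excision repair and damage signalling too. Array ρ° A was the lowest of them for base excision repair, mismatch repair and the Fanconi anaemia genes. The part of the replication list in the values of the repair genes was not tested.

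**Figure D4:**
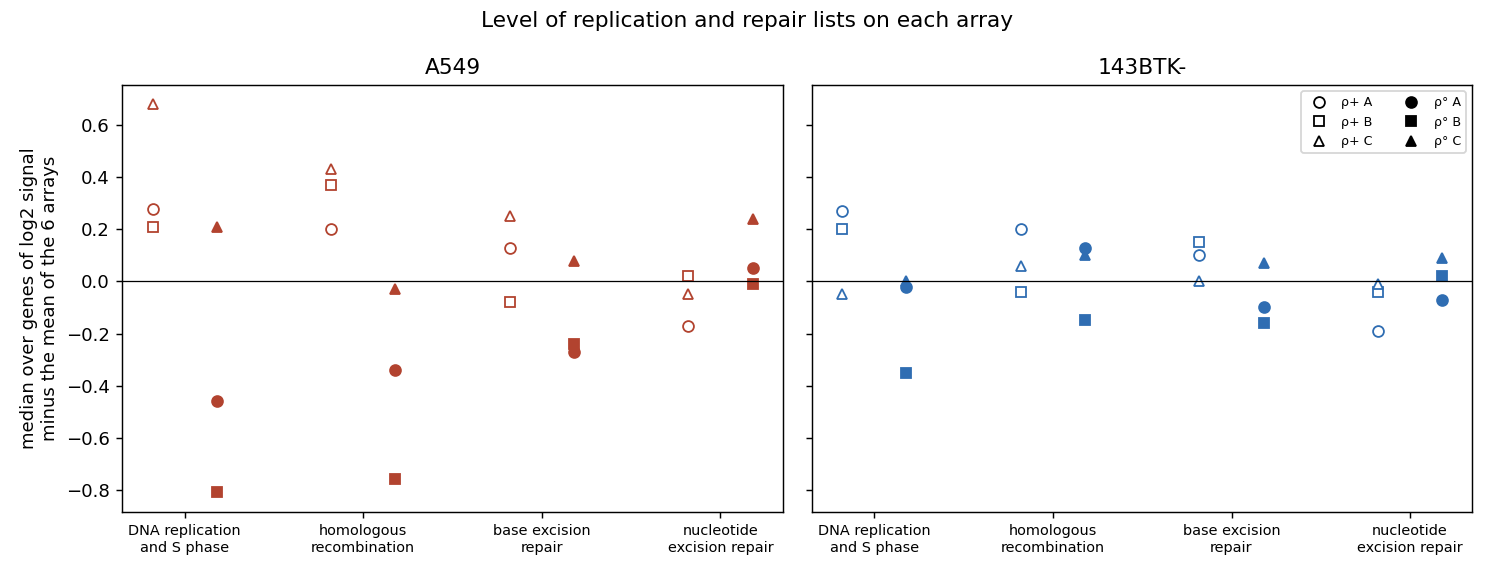
Median over the genes of a list of the log2 signal minus the gene's mean over the 6 arrays of its line (vertical axis) for 4 lists (horizontal axis), on the ρ+ (open) and ρ° (filled) arrays of A549 (left) and 143BTK- (right), with 1 symbol for each replicate letter. In A549 the recombination genes lie at 0.20 to 0.43 on the ρ+ arrays and at -0.76 to -0.03 on the ρ° arrays, and the replication genes are lowest on ρ° B, at -0.81.

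Promoters of the repair genes were searched for the E2F-type letters TTTCCCGC, TTTCGCGC, TTTGCCGC and TTTGGCGC on either strand, from 250 bases before to 50 after the RefSeq start of transcription (GRCh38.p14). E2F factors act on many replication genes. The letters were found in 7 of the 46 repair promoters in the table (15.2%), beside 4.88% of the promoters of genes on the array, 3.33% of all 27305 promoters and 13 of 26 promoters of the replication list (50%). The 7 genes were FANCA, FANCC, LIG1, MSH3, MSH6, XPC and XRCC6. A gene was searched at a single annotated start, so other starts it may use were not read. The windows of 30 bases around the letters are shown because these genes carry the feature there. The genes that changed did not carry it in the single window searched for each. For BRCA1 and ERCC1 that window lies at the outer end of the annotated gene, and starts inside the gene were not searched. No contrast between the changed and the other genes is drawn from this. The windows shown are written 5′ to 3′ along the gene, with the matching letters in capitals, and the overlapping matches on both strands of MSH3 are joined into 1 run.
LIG1, chr19:48170440-48170469, reverse strand: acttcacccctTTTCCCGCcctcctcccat
MSH3, chr5:80654536-80654565, forward strand: gcggtcaagTTTGGCGCGAAAttgtggccg
MSH6, chr2:47783137-47783166, forward strand: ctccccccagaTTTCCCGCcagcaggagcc
XPC, chr3:14178822-14178851, reverse strand: cctgcgcccTTTCCCGCctctcgcgagaac
FANCC, chr9:95317863-95317892, reverse strand: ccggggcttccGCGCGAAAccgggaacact
FANCC, chr9:95317737-95317766, reverse strand: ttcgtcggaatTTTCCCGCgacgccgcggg
FANCA, chr16:89816801-89816830, reverse strand: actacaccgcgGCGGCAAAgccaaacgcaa
XRCC6, chr22:41621315-41621344, forward strand: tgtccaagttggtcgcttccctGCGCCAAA

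The first base of the match lay 114 bases before the start in LIG1 (position -114), at -107 in MSH3, at -241 in XPC and at -172 and -46 in FANCC, and after the start in MSH6 (4) and XRCC6 (43). In the windows searched, none of the 6 genes that passed in A549 (ERCC1, ERCC2, DDB2, PARP1, BRCA1 and RAD51C) was among the 7. Of the 6 of the 7 that were measured, 0 passed in either line. Their A549 changes were -0.07 for LIG1, 0.39 for MSH3, -0.65 for MSH6, -0.32 for XPC, -0.09 for FANCC and -0.47 for XRCC6. The letters are a description of these windows and say nothing of binding in these cells.

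Of 79 other repair genes on a list beyond the 51, 54 were measured in A549. There 1 rose (POLI, a polymerase that copies past lesions, with ρ+ arrays under the lowest mean signal kept) and 3 fell, or 7.41% in all, beside the 10.9% of all kept probe sets. Those that fell were APTX, which clears failed ligation ends (1.76-fold, adjusted p = 0.0311), EXO1, the nuclease of mismatch repair and end resection (3.61-fold, adjusted p = 0.00912), and FANCI, a target of the Fanconi core complex (2.03-fold, adjusted p = 0.0263). Of the 11 genes of nucleotide excision repair measured on this list, 0 passed in A549, beside the same 10.9%. Their median log2 change was 0.01, with 6 genes above 0 and 5 below. In 143BTK- 0 of the 56 other repair genes measured passed. In the mean of both lines POLI rose and EXO1 and TOP3A, the topoisomerase that works with BLM, fell, of 53 measured, beside 3.7% of all kept probe sets.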

How the data were processed

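The deposited intensity values are signals on a linear scale: the authors summarised each probe set with Microarray Suite 5.0 (MAS5) and then quantile-normalised each line separately in R, 6 arrays at a time. They ran from 0.1 to 14101.7 in A549 and from 0.1 to 12270.4 in 143BTK-, and were used as they are. All 12 arrays were used and grouped by line and mtDNA state as labelled. Signals carry no count of molecules, so precision is limited by the 3 arrays of a group.

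The study dropped probe sets without any detected call in a line and tested with a power law global error model fitted on an outside data set. Neither detection calls nor that data set were used here. Instead, as many probe sets as the study kept in a line were kept by mean log2 signal over its 6 arrays, and log2 signals were fitted with limma 3.58.1 in R 4.3.3 (lmFit and eBayes with an intensity trend, two-sided, Benjamini-Hochberg over all kept probe sets, threshold 0.05). The fit of a line has 4 residual degrees of freedom. A fit of all 12 arrays with 4 groups, on the 12139 probe sets kept in both lines and with 8 residual degrees of freedom, gave the mean change and the difference between the lines. The fit was tested on simulated data with known changes.

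Gene names came from the platform annotation (19071 with a single gene, 1043 with several and 2169 with none), with symbols updated through the RefSeq table of GRCh38.p14 (19059 matched and 12 did not). Where several probe sets of a gene were kept, the one highest in mean log2 signal (12 arrays) represented it. Values on every array are given for genes that passed in any comparison and, in each repair group, for up to 3 genes with the smallest unadjusted p under 0.05. Repair genes and lists were chosen with earlier results of these data known. Lists are described by counts and medians beside those of all kept probe sets, without a test. Alternatives were 16 or 64 added before log2, other filters, no trend, the replicate letter as a block, the mean over a gene's probe sets, arrays left out, chromosome centring and, for the fit of 12 arrays, quantile normalisation over all of them. Figures were drawn with matplotlib 3.10.9.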

Additional observations from a re-analysis of the deposited data

Results flagged for a closer look

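None of the 47 repair genes measured in both lines differed between them past the threshold. Of the genes listed beside them, 2 did, in the limma test of the change in A549 minus that in 143BTK-. FANCI, a Fanconi anaemia gene outside the 51, had a difference of -1.72 (adjusted p = 0.0197), and ORC6 of the replication list had -1.73 (adjusted p = 0.0324). Both fell in A549 (log2 change -1.02 for FANCI and -1.74 for ORC6) and did not pass in 143BTK-. The FANCI fall was smaller than its difference between the lines, so the FANCI change in 143BTK- was positive.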

How the results depend on the processing

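The count of repair genes that passed in A549, 6 as reported, was 3 without the intensity trend and ran from 1 to 8 as single arrays were left out. The mean change, 2 as reported, gave 1 with 64 added, without a filter, with a mean signal of at least 100, without the trend and with chromosome centring, 0 without the 143BTK- ρ+ C and ρ° B arrays, and 0 to 3 with single arrays left out. The difference between the lines, 0 as reported, gave 1 without those 2 arrays and 0 to 2 with single arrays left out. In 143BTK- it was 0 throughout. These counts are given without the shares of all kept probe sets under the same settings. None of the 6 genes that passed in A549 changed sign under any alternative, and PARP1 kept its call in 14 of 15 and ERCC2 in 13 of 14. DDB2 kept its call in 6 of 15. Replicate letters did not pair the arrays: same-letter deviations correlated at 0.107, 0.0543 and 0.0861 in A549, where each array correlated best with its own letter, and at 0.359, -0.106 and -0.0155 in 143BTK-. With the replicate letter as a block 5 repair genes passed in A549, and DDB2 did not (adjusted p = 0.0616). Of 376 medians of a repair group under an alternative, 334 lay within the spread between arrays, and the A549 median of homologous recombination ran from -0.95 to -0.36. The cause of these shifts was not tested.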
